A study of Mus musculus with 12 samples.

Results

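Sphingosine kinase 1 (Sphk1) and 9 other genes of sphingolipid signalling were examined in the kidney transcriptome of mice after long-term treatment with cannabidiol (CBD). The 10 genes were taken by symbol from a fixed list of enzymes and receptors, and all 10 were found among the 57180 genes counted. They were the kinases Sphk1 and Sphk2, the lyase Sgpl1, the receptors S1pr1, S1pr2 and S1pr3, the ceramidase Asah1, the ceramide synthases Cers2 and Cers6 and the sphingomyelin synthase Sgms1. Sphk1 was chosen by its measured difference between the 20 mg and control groups of these same mice, so its values are given as a description, and the other 9 were chosen by their role in the pathway. The samples were kidneys of 12 adult male C57BL/6J mice, with 4 mice in each of 3 groups and 1 library of poly(A) RNA per mouse. All 3 groups received a daily intraperitoneal injection for 28 days, so that handling and the saline vehicle with Tween were common to controls and treated mice. The control group received the vehicle alone, and the treated groups received 10 or 20 mg CBD per kg of body weight (b.w.). Each library came from kidney tissue of mixed cell types, so fewer cells of a type and less RNA per cell cannot be told apart.

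Ceramide is the central lipid of this pathway. Ceramide synthases attach a fatty acid to a sphingoid base, ceramidases release sphingosine again, and sphingosine kinases phosphorylate it to sphingosine 1-phosphate (S1P), which leaves the cell and acts on G protein-coupled receptors. In the kidney, S1P signalling is known for its part in endothelial barrier function, vascular tone and fibrosis, and Sphk1 is an inducible cytoplasmic enzyme, whereas Sphk2 lies largely in the nucleus and mitochondria.

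Upstream windows were searched for motifs, and sequence is shown for Sphk1, Cers2 and Cers6 because their windows held the E-box. RefSeq promoter windows of 250 bases before the start (GRCm39) were found for 9 of 11 genes looked up, the 10 listed genes and the ceramidase Acer2, and held 18 windows in all. The E-box, the motif CACGTG that is read by basic helix-loop-helix factors including those of the circadian clock, was present in windows of these 3 genes only. It is printed in capitals with 12 bases on both sides, on the strand of the gene.
Sphk1: catacaccggggCACGTGtgcattttcacc
Cers2: cgccctgcggggCACGTGccacccgccccg
Cers6: cggccaggctgcCACGTGacaggcgaggcg
The Sphk1 stretch lay at chr11:116423163-116423192 on the plus strand, with the motif 95 bases before the nearest start, in 2 of the 5 windows of the gene and in an exon, as UTR, of 2 of the 11 overlapping Sphk1 transcripts of GENCODE vM39. The Cers2 stretch lay at chr3:95222360-95222389 on the plus strand, 129 bases before the start and in no exon of Cers2. The Cers6 stretch lay at chr2:68691751-68691780 on the plus strand, 22 bases before the start and in the UTR of 4 transcripts. Of all 32851 windows of this length, 6.02% held the E-box, which reads the same on both strands. This share counts windows, and the same Sphk1 site fell in 2 of the 18 windows, those of Cers2 and Cers6 in 1 each. A GC box (GGGCGG, in 32.7% of all windows) and a glucocorticoid response element (in 0.00913%) were also searched for and did not choose the sequences shown. The D-box TTATGTAA, which is bound by the clock output factor Dbp and was present in 0.819% of all windows, was matched on either strand in none of the 18 windows. A match here describes letters of the reference genome, and binding was not measured.

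The total counted on genes was 15417867 to 23532088 per library. Mitochondrially encoded genes took 3.53% to 5.77% of the counts in 4 libraries (control replicate 2, replicates 1 and 3 of the 10 mg group and replicate 3 of the 20 mg group) and 12.8% to 23.4% in the other 8. Since these 4 libraries stand apart, the results below are also given without them where it matters. Kidney markers were high throughout, with Kap, the androgen-regulated protein of the proximal tubule, between 16215 and 24560 CPM. Expression is given in CPM, that is read counts divided by library size and TMM factor, as mean ± SD of 4 mice, and differences as log2 fold changes with the standard error (SE) of edgeR's quasi-likelihood fit over 17163 genes. A gene was called at a Benjamini-Hochberg adjusted p under 0.1.

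In control kidneys, Cers2 and Asah1 had the highest levels per kb of exon of the 10 genes, and Sphk1 and S1pr2 the lowest. Per kb of exon, Cers2, which makes ceramides with very long acyl chains, reached 19.1 ± 5.34 CPM, with a range over the 4 mice of 11.4 to 23.5. Asah1, the acid ceramidase of the lysosome, followed at 9.17 ± 2.09 CPM per kb (6.23 to 11.1), below every value of Cers2. Sgpl1, the lyase that degrades S1P irreversibly, stood at 7.15 ± 0.46 CPM per kb (6.82 to 7.81), within the range of Asah1. Sphk2, Cers6, Sgms1 and S1pr1 formed a group at 4.67 ± 1.01, 3.98 ± 0.57, 3.38 ± 0.25 and 3.36 ± 0.45 CPM per kb, in which each gene overlapped the next in order. S1pr3 lay below them at 2.27 ± 0.31 (1.85 to 2.52). Sphk1 had 0.490 ± 0.167 CPM per kb (0.336 to 0.705), and S1pr2 had the lowest level at 0.166 ± 0.025 (0.134 to 0.194). The ranges of S1pr3, Sphk1 and S1pr2 did not overlap each other. The order at the extremes held when the longest transcript replaced the exon union as length, while Sgms1 then stood at 8.82 CPM per kb, above Sphk2 and Cers6.

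**Figure D1:**
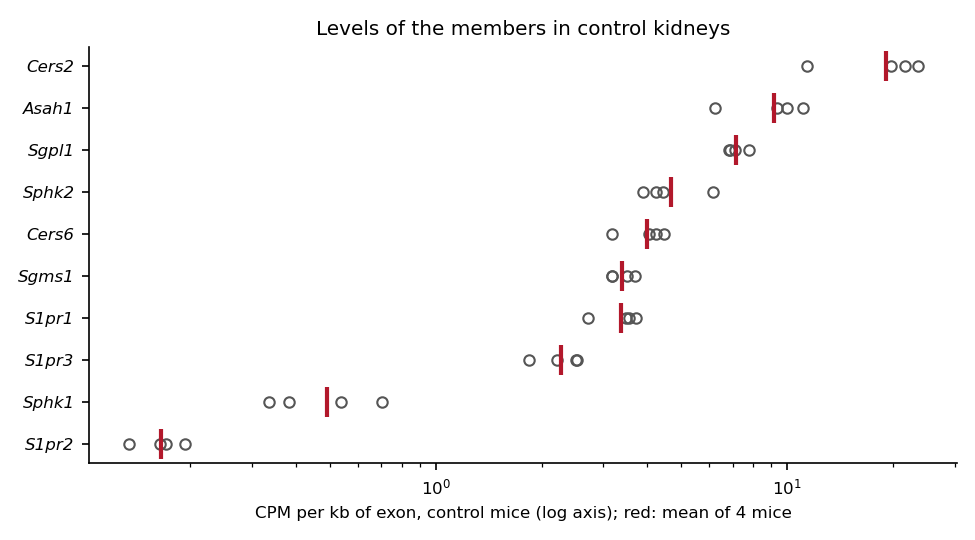
Level of each of the 10 genes in the 4 control kidneys, as CPM per kb of exon on a log axis. Open circles are mice and red bars are means, with Cers2 at the top at 19.1 and S1pr2 at the bottom at 0.166.

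Sphk1 (ENSMUSG00000061878, chr11:116421751-116427501, plus strand) was higher on average at both doses, with the smallest counts of the kinases. Its raw counts lay between 37 and 132 per library. In the control mice it reached 2.98, 3.91, 1.86 and 2.12 CPM (2.72 ± 0.93). In the mice treated with 10 mg it reached 4.91, 3.43, 5.78 and 6.34 CPM (5.11 ± 1.27). In the mice treated with 20 mg it reached 3.87, 7.12, 7.92 and 7.06 CPM (6.49 ± 1.79). The groups overlapped at both doses, by control replicate 2, the highest control, and the lowest mouse of each treated group, and the other 3 mice of each treated group exceeded every control. The log2 fold change from the control group was 0.91 (SE 0.28) at 10 mg and 1.25 (SE 0.28, 95% interval 0.65 to 1.84) at 20 mg, or 2.38-fold. The second of these values is the one that chose the gene, and the first shares its control mice. Between the doses the log2 difference was 0.34 (SE 0.27, adjusted p = 0.88). Sphk1 did not pass the threshold at 10 mg (adjusted p = 0.80) or at 20 mg (adjusted p = 0.13).

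The values of Sphk1 by mitochondrial share describe the same difference that chose the gene and are no second observation of it. In the libraries with a low mitochondrial share Sphk1 was 3.91 CPM in the 1 control mouse, 4.91 and 5.78 at 10 mg and 7.92 in the 1 mouse at 20 mg. In the other 8 libraries it was 1.86 to 2.98 CPM in the controls, 3.43 and 6.34 at 10 mg and 3.87 to 7.12 at 20 mg. In this set every treated mouse exceeded every control, with a log2 fold change at 20 mg of 1.36. Relative to the summed CPM of 8 endothelial markers, Sphk1 was 0.327% to 0.677% in the controls, 0.612% to 1.10% at 10 mg and 0.652% to 1.32% at 20 mg. Relative to 6 markers of smooth muscle and pericytes it was 0.802% to 1.90%, 1.45% to 2.36% and 1.31% to 2.64% in the same order, with overlapping groups on both scales.

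Sphk2 (chr7:45358891-45367426, minus strand), the second kinase, did not pass the threshold at either dose and its mean changed little. It reached 33.0, 45.8, 28.9 and 31.5 CPM in the controls, 40.1, 31.3, 39.0 and 36.5 CPM at 10 mg, and 28.8, 34.8, 42.9 and 32.3 CPM at 20 mg. The groups overlapped, with log2 fold changes of 0.08 (SE 0.16, adjusted p = 0.96) at 10 mg and -0.01 (SE 0.16, adjusted p = 0.997, 95% interval -0.35 to 0.34) at 20 mg. The exons of Sphk2 lie partly opposite to those of other genes. On the other strand, Dbp covers 539 bases (7.24%) and Rpl18, a ribosomal protein gene, 2299 bases (30.9%) of its exon union. Reads on the shared bases can only be told apart if the counting used the strand, which the sources used here do not give. Since reads on several genes were left out, counting without the strand could drop reads of Sphk2 on these bases. Dbp rose from 2.36 ± 0.70 CPM in the controls to 15.7 ± 2.81 at 10 mg and 24.0 ± 2.22 at 20 mg (6.71-fold and 10.2-fold, edgeR adjusted p = 1.88e-05 and 1.31e-06), and was named after its values were seen. The means of Sphk2 did not rise in this way. Rpl18 had 138 ± 14.1 CPM in the controls, 145 ± 35.3 at 10 mg and 176 ± 88.9 at 20 mg. Its log2 fold change at 20 mg was 0.35 (SE 0.27, edgeR adjusted p = 0.79). Whether the counts of Sphk2 hold reads of either gene, or lack its own reads on the shared bases, was not tested.

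**Figure D2:**
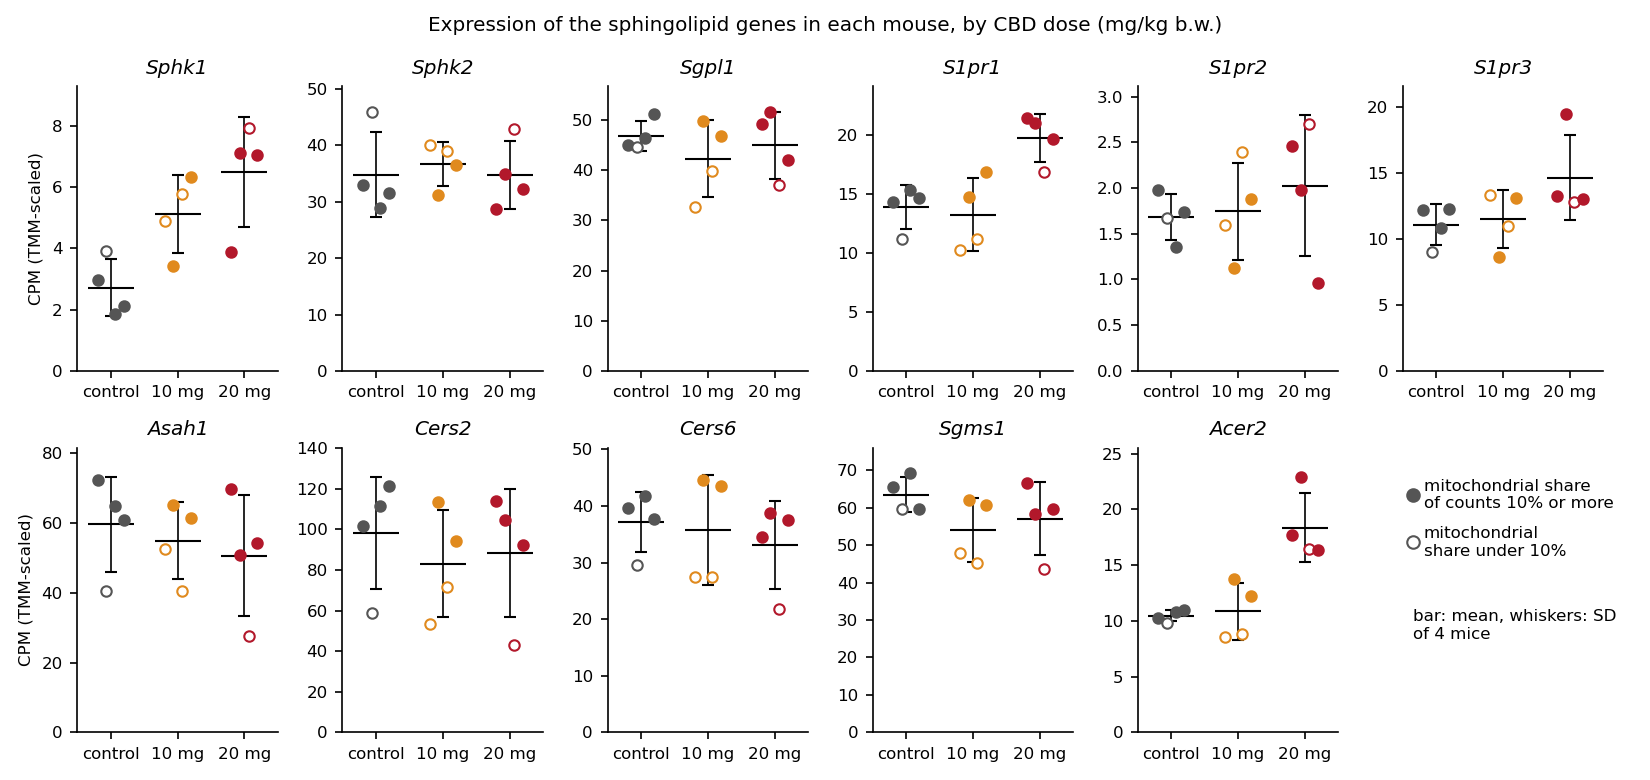
CPM of the 10 genes and of Acer2 in each of the 12 mice by dose group. Points are mice, open where the mitochondrial share of counts was under 10%, bars are means and whiskers the SD of 4 mice, with Sphk1 averaging 2.72, 5.11 and 6.49 CPM and Acer2 separated from the other groups only at 20 mg.

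Of the S1P receptors, S1pr1 and S1pr3 had higher values at 20 mg than in every control, and none of the 3 receptors was called. S1pr1 (chr3:115504071-115508721, minus strand), the main endothelial receptor, reached 14.4, 11.2, 15.4 and 14.7 CPM in the controls and 10.3, 14.8, 11.2 and 16.85 CPM at 10 mg. At 20 mg it reached 21.4, 21.0, 16.91 and 19.7 CPM. All 4 mice treated with 20 mg exceeded all controls and also all mice treated with 10 mg, the latter by a margin of 16.91 against 16.85 CPM. The log2 fold change against the control group was 0.51 (SE 0.17, 95% interval 0.15 to 0.86, 1.42-fold) at 20 mg and -0.07 (SE 0.17, adjusted p = 0.97) at 10 mg. Between doses the log2 difference was 0.58 (SE 0.17, adjusted p = 0.76). The adjusted p at 20 mg was 0.39, so the gene was not called.

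S1pr1 also moved with the mitochondrial share within each group. The libraries with a low share held the lowest S1pr1 of the controls (11.2 CPM), of the mice treated with 10 mg (10.3 and 11.2 CPM) and of those treated with 20 mg (16.9 CPM). Among the other 8 libraries, S1pr1 was 14.4 to 15.4 CPM in the controls, 14.8 and 16.85 CPM at 10 mg and 19.7 to 21.4 CPM at 20 mg, with a log2 fold change at 20 mg of 0.49. The summed CPM of 8 endothelial markers was 548 to 578 in the controls, 535 to 647 at 10 mg and 574 to 714 at 20 mg, and 0 of 8 markers were called at either dose. Of the 8, the receptor gene Kdr was lower in every mouse treated with 20 mg than in every control (63.1 to 78.9 against 82.0 to 101 CPM, adjusted p = 0.42). S1pr1 was 1.94% to 2.69% of this sum in the controls, 1.59% to 2.92% at 10 mg and 2.82% to 3.61% at 20 mg, so the groups at 20 mg and control did not overlap on this scale. Against the sum of 6 smooth muscle and pericyte markers S1pr1 was 5.44% to 6.61% in the controls, 3.90% to 6.26% at 10 mg and 5.63% to 7.26% at 20 mg, and these groups overlapped.

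S1pr3 (chr13:51561702-51576833, plus strand), a receptor of vascular smooth muscle and other cells, had 12.2, 9.02, 10.8 and 12.3 CPM in the controls and 13.3, 8.64, 11.02 and 13.1 CPM at 10 mg. At 20 mg it had 13.3, 19.5, 12.8 and 13.04 CPM. All 4 mice of the 20 mg group exceeded all controls, although 3 of them lay close above the highest control and replicate 2 stood far above the rest. The log2 fold change was 0.40 (SE 0.18, 95% interval 0.02 to 0.78, adjusted p = 0.57) at 20 mg and 0.06 (SE 0.18, adjusted p = 0.98) at 10 mg. Without replicate 2 of the 20 mg group it was 0.23 at 20 mg.

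Markers of smooth muscle and pericytes also had higher levels at 20 mg. Their summed CPM over 6 genes was 206 to 237 in the controls, 237 to 269 at 10 mg and 296 to 344 at 20 mg. At 20 mg, 1 of the 6, the myosin heavy chain Myh11, was called (74.7 ± 7.25 CPM in the controls, 122 ± 20.1 at 20 mg, log2 fold change 0.71, SE 0.14, adjusted p = 0.076), and 3 of the 6 were higher in every treated mouse than in every control. S1pr3 was 4.38% to 5.39% of this sum in the controls, 3.65% to 5.06% at 10 mg and 3.79% to 5.78% at 20 mg, and on this scale the groups overlapped. The part of these cells in the level of S1pr3 was not tested.

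S1pr2 (chr9:20873657-20914139, minus strand), another S1P receptor, was too low for a difference of this size to be resolved. It had 17 to 53 counts per library, with 1.69 ± 0.25 CPM in the controls, 1.75 ± 0.53 at 10 mg and 2.02 ± 0.77 at 20 mg. The 95% interval at 20 mg spanned log2 fold changes from -0.41 to 0.93 (adjusted p = 0.88).

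Sgpl1 (chr10:60934421-61011826, minus strand) was level between the groups within the spread of the mice. It had 45.02, 44.7, 46.5 and 51.2 CPM in the controls, 32.7, 49.9, 39.9 and 46.8 CPM at 10 mg, and 49.3, 51.55, 37.1 and 42.0 CPM at 20 mg. The log2 fold change was -0.15 (SE 0.14, adjusted p = 0.93) at 10 mg and -0.06 (SE 0.14, 95% interval -0.36 to 0.25, adjusted p = 0.95) at 20 mg.

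The 4 enzymes that make or use ceramide had lower means than the controls at both doses, with overlapping groups, and none was called. Asah1 (chr8:41792846-41827851, minus strand) had 59.7 ± 13.6 CPM in the controls, 54.9 ± 11.01 at 10 mg and 50.6 ± 17.3 at 20 mg (log2 fold change at 20 mg -0.24, SE 0.24, adjusted p = 0.85). Cers2 (chr3:95221790-95234060, plus strand) had 98.2 ± 27.5, 83.1 ± 26.3 and 88.4 ± 31.5 CPM in the same order, with log2 fold changes of -0.24 (SE 0.29, adjusted p = 0.94) and -0.15 (SE 0.29, adjusted p = 0.93). Cers6 (chr2:68691455-68944627, plus strand), which prefers shorter acyl chains, had 37.2 ± 5.32, 35.8 ± 9.66 and 33.2 ± 7.77 CPM, with an adjusted p of 0.98 at 10 mg and 0.88 at 20 mg. These values do not show that ceramide enzymes were unaltered, since the 95% interval of Cers2 at 20 mg ran from -0.77 to 0.47. Some of these enzymes also have partners on the other strand. Setdb1 covers 1309 bases (25.4%) of the exon union of Cers2, and Sgms1os1 covers 1429 bases (7.62%) of that of Sgms1. The strand limit given for Sphk2 therefore applies to the levels of both genes. Sgms1 (chr19:32097497-32367505, minus strand), which converts ceramide to sphingomyelin in the Golgi, had 63.4 ± 4.71 CPM in the controls, 54.0 ± 8.59 at 10 mg and 57.0 ± 9.73 at 20 mg, with log2 fold changes of -0.23 (SE 0.14, adjusted p = 0.89) and -0.15 (SE 0.14, adjusted p = 0.84).

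**Figure D3:**
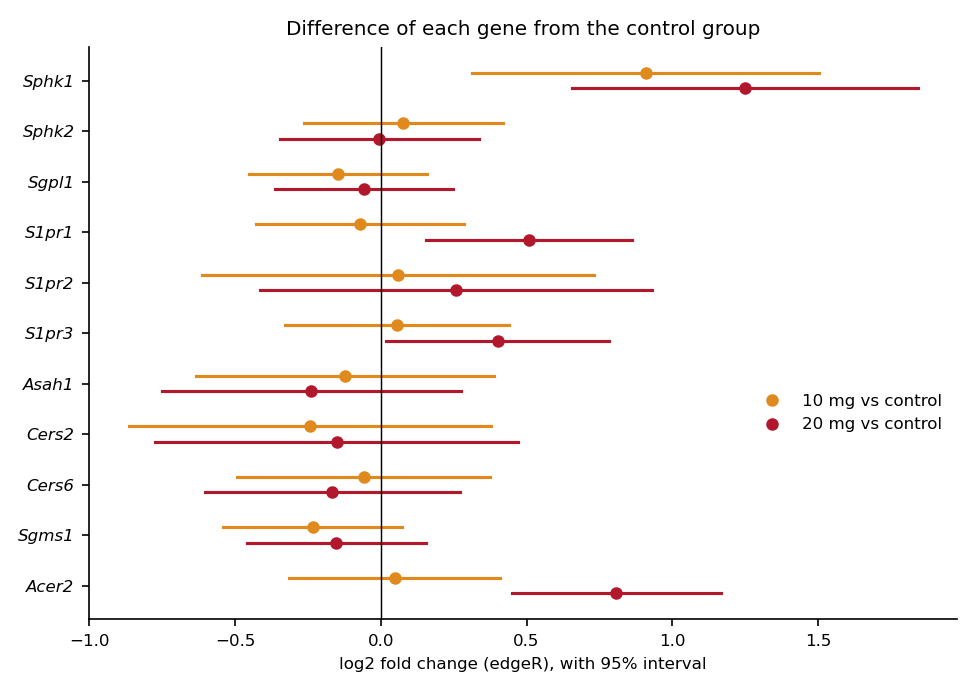
Log2 fold change of each gene against the control group at 10 mg (orange) and 20 mg (red), with the 95% interval of the edgeR fit. Sphk1 lies at 0.91 and 1.25, the receptors S1pr1 and S1pr3 lie above 0 at 20 mg, and Asah1, Cers2, Cers6 and Sgms1 have intervals that span 0. The ceramidase Acer2, from outside the 10 genes, is also shown and lies at 0.81 (0.45 to 1.17) at 20 mg.

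Over the 10 genes, none was called by edgeR in any comparison. DESeq2 called Sphk1 at 20 mg, where it called 170 of 40012 genes with any count. That comparison is the one that chose the gene, so the call is a description. The edgeR background was low as well: 0.0291% of the 17163 genes tested were called at 10 mg (5 genes) and 0.303% at 20 mg (52 genes). Between the doses 0 genes were called (0%) by edgeR, where 1083 had an unadjusted p under 0.05 and DESeq2 called 13. At 20 mg, 2 of the 10 genes (S1pr1 and S1pr3) were higher in all treated mice than in all controls, where 2.67% of all genes were, and none was lower in all. At 10 mg all 10 genes overlapped with the controls, where 3.19% of all genes did not overlap in either direction. Between the doses S1pr1 alone did not overlap, where 1.7% of all genes were higher in every mouse treated with 20 mg. The median log2 fold change of the 10 genes was -0.07 at 10 mg and -0.03 at 20 mg, beside medians of 0.01 and 0.01 over all genes tested. Without Sphk1 the log2 fold changes at 20 mg lay between -0.24 and 0.51.

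Cers2 and Cers6 varied with the mitochondrial share of the library in every group. Cers2 had 58.7, 53.3, 71.4 and 43.1 CPM in the 4 libraries with a low mitochondrial share and between 92.3 and 121 CPM in the other 8. Cers6 had 21.8 to 29.6 CPM in these 4 and 34.5 to 44.7 CPM in the other 8. Both were lower in every library of the first set than in every other library. The other ceramide synthases tested did not share this, since Cers5 was higher in the first set (25.2 to 29.04 against 19.9 to 24.99 CPM) and Cers4 overlapped. Sphk2 went the other way, with 39.0 to 45.8 CPM in the 4 libraries and 28.8 to 36.5 CPM in the other 8. The remaining 7 genes, Sphk1 among them, overlapped between the sets when all groups were pooled. Within the control, 10 mg and 20 mg groups, the mean of Sphk1 differed by 1.59, 0.46 and 1.90 CPM, low share against the rest. Asah1 differed by -25.5, -16.8 and -30.4 CPM and Sgpl1 by -2.86, -12.0 and -10.6 CPM in the same order. Sgms1 and S1pr1 were also lower on average in each group, and S1pr2 and S1pr3 had mixed signs. The control and 20 mg groups held 1 such library each. Of all genes tested, 6.65% were lower and 6.29% higher in all 4 libraries than in all others, 12.9% in either direction. A model with the mitochondrial share as a covariate called 4 of the 10 genes at 20 mg, Sphk1 (log2 fold change 1.37), S1pr1 (0.40), Cers2 (-0.44) and Cers6 (-0.35), but it also called 1386 of all 17163 genes. Without the 4 libraries, 1 of the 10 genes, Sphk1, was called at 20 mg, where 107 of 17512 genes were.

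**Figure D4:**
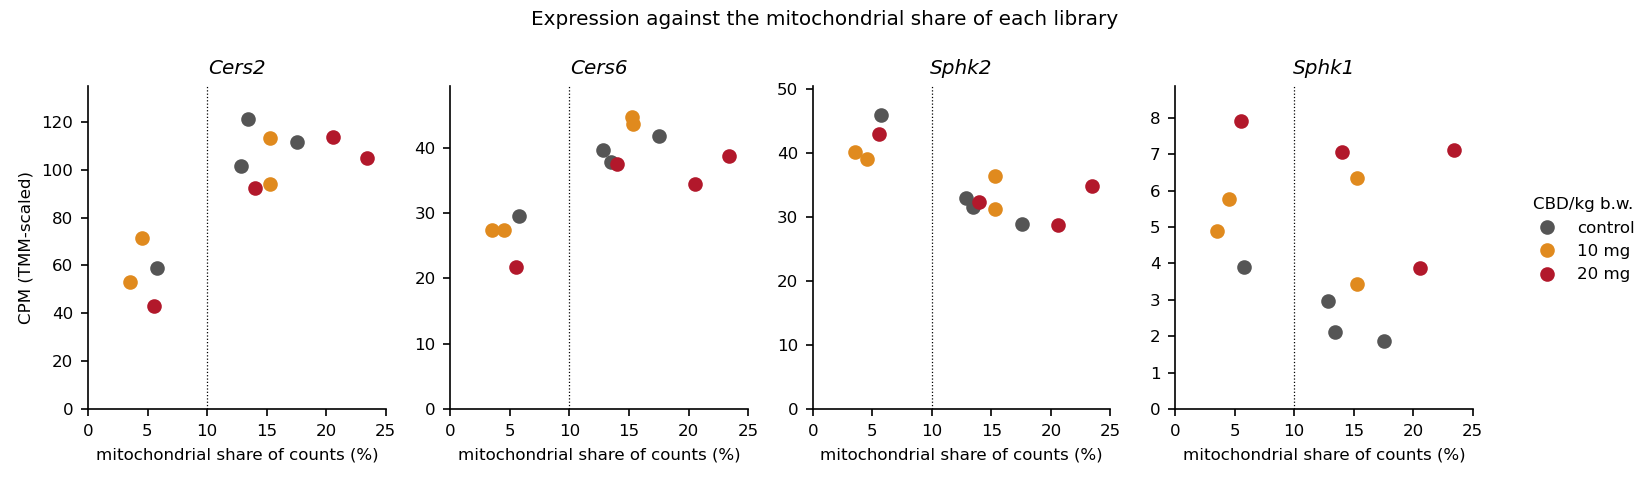
CPM of Cers2, Cers6, Sphk2 and Sphk1 in each library against the share of its counts on mitochondrially encoded genes, coloured by dose group, with a dotted line at 10%. Cers2 and Cers6 are lower and Sphk2 higher in the 4 libraries left of the line, while Sphk1 overlaps across it with all groups pooled.

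Among 61 other sphingolipid genes listed by their step in the pathway, 55 passed the filter on low counts, and edgeR called 1 of them, Acer2, at 20 mg, where it called 0.303% of all genes. DESeq2 called Acer2 and St3gal5 at 20 mg, where it called 170 of 40012 genes with any count. Acer2 encodes the alkaline ceramidase of the Golgi, which releases the sphingosine that sphingosine kinases use. It had 10.3, 9.83, 10.8 and 10.98 CPM in the controls and 8.57, 13.8, 8.85 and 12.3 CPM at 10 mg. At 20 mg it had 17.7, 22.9, 16.5 and 16.3 CPM, above every mouse of both other groups. The log2 fold change was 0.81 (SE 0.17, 1.75-fold, adjusted p = 0.090) at 20 mg, 0.05 (SE 0.17, adjusted p = 0.98) at 10 mg and 0.76 (SE 0.17, adjusted p = 0.76) between the doses. In the 8 libraries with the higher mitochondrial share Acer2 was 10.3 to 10.98 CPM in the controls and 16.3 to 22.9 CPM at 20 mg. The call was lost in 10 of 12 fits that left out 1 library (all but replicates 1 and 2 of the 10 mg group), with a log2 fold change between 0.68 and 0.86 and an adjusted p between 0.065 and 0.28.

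The other ceramidases and ceramide synthases had values near the controls. Asah2, the neutral ceramidase, had a log2 fold change of 0.01 (SE 0.17) at 20 mg, Acer3 of -0.10 (SE 0.14), and Cerk, which phosphorylates ceramide, of 0.06 (SE 0.13). Cers4 and Cers5 had 0.13 (SE 0.16) and 0.02 (SE 0.13). Cers1, Cers3 and Acer1 were too low to test, with at most 0.477 CPM in any control mouse.

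The class that dephosphorylates, moves or senses S1P was measured by 9 of its 10 genes, of which edgeR called none in any comparison. Sgpp1, an S1P phosphatase of the endoplasmic reticulum, had the largest difference of the class at 20 mg, from 119 ± 10.6 CPM in the controls to 150 ± 25.6 (log2 fold change 0.34, SE 0.13, adjusted p = 0.50), with overlapping groups. The log2 fold changes at 20 mg were -0.13 (SE 0.21) for the second phosphatase Sgpp2 and 0.11, 0.07 and 0.19 for the lipid phosphatases Plpp1, Plpp2 and Plpp3. The S1P exporters Spns2 and Mfsd2b had 0.11 and 0.04. Apom, the apolipoprotein that carries S1P in plasma, was abundant at 108 ± 17.9 CPM per kb of exon in the controls and had a log2 fold change of 0.01 (SE 0.16). S1pr4, a receptor of lymphocytes, had under 1 CPM in every library and -0.08 (SE 0.44), and S1pr5 was not tested.

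In the remaining classes edgeR called no gene. In de novo synthesis, 3 of 11 genes tested lay above 0 and 8 below 0 at 20 mg, with a median log2 fold change of -0.05, and its gene with the highest control level per kb of exon, the desaturase Degs1, had -0.07 (SE 0.14). Among 7 genes of sphingomyelin synthesis and breakdown the median was -0.02, and the acid sphingomyelinase Smpd1 had 0.09 (SE 0.13). Among 12 genes of glycosphingolipid synthesis and transfer it was 0.07, and the transfer protein Gltp had 0.16 (SE 0.17). Of 10 genes of lysosomal glycosphingolipid breakdown, 9 lay below 0 at 20 mg with a median of -0.13, where 52.5% of all genes tested lay above 0, and Psap, the precursor of the saposins, had -0.05 (SE 0.18).

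A few single genes of these classes separated the groups without being called by edgeR, and were named after their values were seen. St3gal5, the synthase of ganglioside GM3, had 4.54 to 5.99 CPM in the controls and 6.56 to 11.1 CPM at 20 mg (log2 fold change 0.69, SE 0.19, edgeR adjusted p = 0.30). B3galnt1, the globoside synthase, had 14.9 to 16.9 CPM in the controls and 9.98 to 12.5 CPM at 10 mg (-0.49, SE 0.15, adjusted p = 0.80). Ugcg, which makes glucosylceramide, was lower in all mice treated with 20 mg than in all those treated with 10 mg (-0.47, SE 0.13, adjusted p = 0.76). Over the 55 genes, 2 were higher in all mice treated with 20 mg than in all controls, where 2.67% of all genes were, and 0 were lower, and the median log2 fold change was -0.01.

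**Figure D5:**
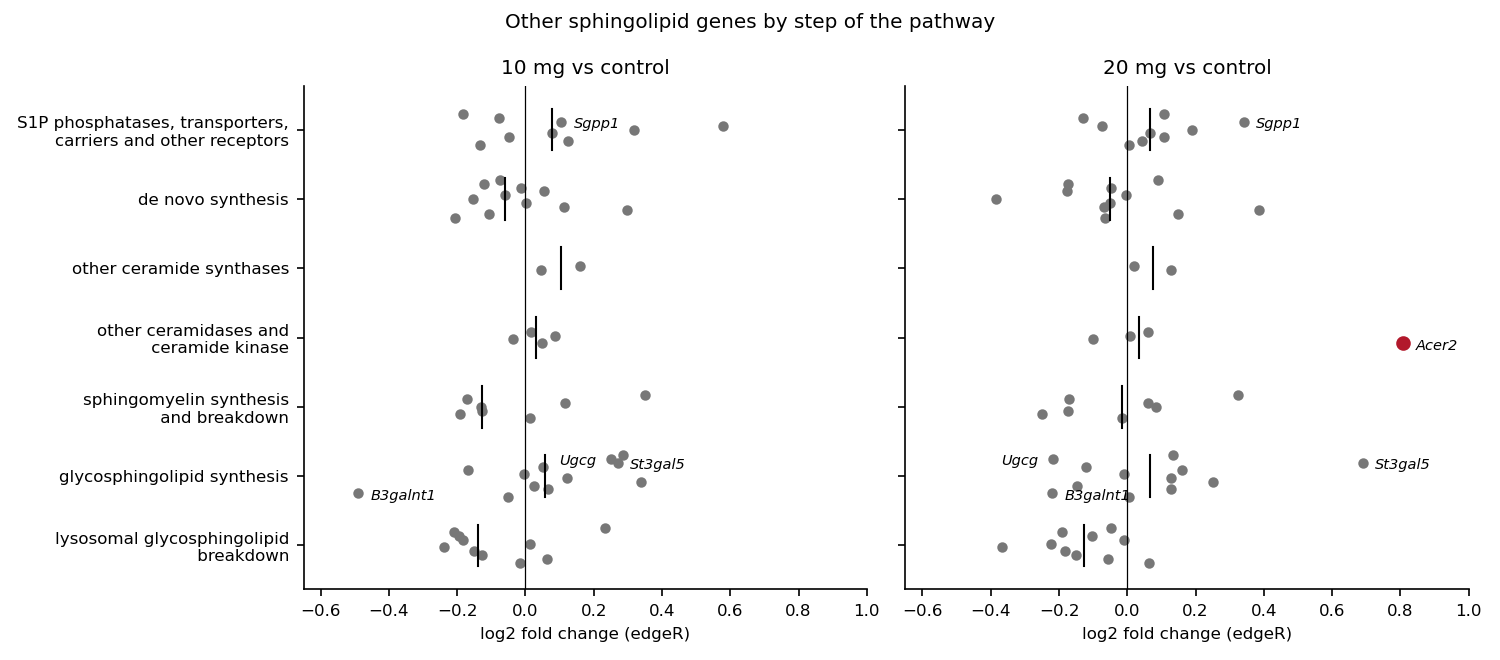
Log2 fold change of the 55 other sphingolipid genes tested at 10 mg and 20 mg against the control group, by step of the pathway. Points are genes, black bars class medians and the red point the 1 gene called, Acer2 at 0.81 in the 20 mg comparison.

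The genes whose pattern was most like that of Sphk1 over the 12 libraries were found by Pearson's r of log2 CPM. They were the glycosyltransferase Lfng (r = 0.91, Spearman coefficient 0.88), the actin-capping protein gene Capg (r = 0.90, Spearman coefficient 0.95), Gm56959 (r = 0.89, Spearman coefficient 0.83), the tight junction gene Tjp3 (r = 0.89, Spearman coefficient 0.91) and the mitochondrial ribosomal gene Mrps6 (r = 0.88, Spearman coefficient 0.90). Without the 2 libraries farthest from the median of Sphk1, r was between 0.74 and 0.84. Lfng had 4.23 to 7.01 CPM in the controls, 6.10 to 9.22 at 10 mg and 7.26 to 9.66 at 20 mg, and Capg had 11.2 to 17.0, 14.9 to 21.0 and 15.4 to 36.6 CPM. With group means removed, the 5 genes with the highest r were others, namely the lysosomal regulator gene Tfeb (0.93), Nnmt (0.93), Niban2 (0.92), Mus81 (0.91) and Wnt9a (0.90). These are the top values of 17163 genes over 12 points that share depth and dose groups, and they carry no test.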

How the data were processed

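Poly(A) RNA libraries (CORALL mRNA-Seq V2) were prepared from 12 kidneys. The authors trimmed reads with Flexbar, checked them with FastQC 0.11.9, aligned them to GRCm39 with STAR 2.7.5c and counted them with HTSeq 1.99.2, and deposited raw counts per Ensembl gene. The annotation release, the strand setting and the use of molecular identifiers are not given in the sources used here. Reads on no gene (12.1% to 19.9%, as a share of these and counted reads together) or on several genes (4.72% to 5.29%) were left out. Symbols came from GENCODE vM39, which matched 99.02% of identifiers and 99.95% of counts. No pair of libraries held identical counts.

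Counts were tested with edgeR 4.0.16 (R 4.3.3, limma 3.58.1): filterByExpr, TMM, a quasi-likelihood fit with 1 mean per group, and Benjamini-Hochberg adjustment over 17163 genes. The common biological coefficient of variation was 0.208. The procedure was tested on simulated data. Log2 CPM used a prior count of 2. Depth limits low genes. Whether the deposited counts were corrected for repeated reads is not known and no correction was made here, so counting error may be a lower bound. P-values rest on the spread between 4 mice per group.

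The listed genes, pathway lists and tests were chosen with earlier results of these data known. The genes named were the 10 listed genes, all S1P phosphatases, transporters, carriers and other receptors, the other ceramide synthases and ceramidases, any other pathway gene called, the gene with the highest control level per kb of exon in each remaining class, the 5 genes most like Sphk1 with and without group means, and markers beside a result. Exceptions are stated. Among marker lists of 15 cell types or states, 2 genes were called at 20 mg (Myh11 and Slc5a2) and 0 at 10 mg. Alternatives were RLE factors, no filter, DESeq2 1.42.0, the replicate number as a block, the mitochondrial share as covariate, mitochondrial genes left out, only the groups compared, an adjusted p under 0.05, each library left out, and, added after seeing the data, removal of the 4 libraries with a low mitochondrial share. The replicate numbers were not taken as pairs in the main fit, and whether they pair the mice was not settled.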

Additional observations from a re-analysis of the deposited data

Results flagged for a closer look

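Among the 10 genes, S1pr3 in the group treated with 20 mg was the only case in which 1 mouse lay far from its group. Replicate 2 stood at 19.5 CPM, the remaining mice of the group at 13.3, 12.8 and 13.04 CPM, and the gap to the nearest mouse was 0.922 of the whole range, above Dixon's critical value for 4 samples. Of the 30 groups of these genes checked, 1 was marked in this way, and chance marks about 1 in 20. Genes outside the 10 were not part of this check. Among those, Smpd1 had a gap of 0.848 of the range in the controls, where replicate 3 stood at 47.2 CPM and the others between 53.3 and 54.4 CPM.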

How the results depend on the processing

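Of the 30 log2 fold changes of the 10 genes, all kept their direction with RLE factors, no filter, DESeq2, the block, mitochondrial genes left out and only the groups compared, 21 kept it with the mitochondrial share as covariate and 22 without the 4 libraries of low mitochondrial share. Under every alternative run, Sphk1 kept its direction in all comparisons. At 20 mg S1pr1, S1pr2, S1pr3, Asah1, Cers6 and Sgms1 did so too. The same held for Cers2 and Sgms1 at 10 mg, and for S1pr1, S1pr2 and S1pr3 between doses. The number of genes called at 10 mg (5) was 331 without a filter, 33 with DESeq2, 15 with the covariate, 3 at an adjusted p under 0.05, 26 without the 4 libraries and 2 to 8 with 1 library left out. At 20 mg (52) it was 416, 170, 1386, 23, 107 and 14 to 54 in the same order. Between doses (0) it was 256 without a filter, 13 with DESeq2 and 62 with the covariate. Of the 10 genes, 1 (Sphk1) was called at 10 mg without a filter (adjusted p = 0.039), and 1 (Sphk1) at 20 mg without a filter (adjusted p = 0.00011), with DESeq2 (0.0052), without the 4 libraries (0.052), and without replicate 2 of the 10 mg group (0.096) or replicate 1 of the 20 mg group (0.060), so that leaving out 1 library gave 0 to 1 calls, and 4 were called with the covariate. Of the other sphingolipid genes at 20 mg, 2 were called with DESeq2, 5 with the covariate, 0 at an adjusted p under 0.05 and 0 to 1 with 1 library left out, and between doses 1 (Acer2) without a filter and 1 (Acer2) with DESeq2. The causes were not tested.

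Same-numbered libraries had correlations of their deviations from -0.33 to 0.32, over 0.1 in 4 of 12 pairs. Libraries of different number reached 0.445 where both had a low mitochondrial share (control replicate 2 and 20 mg replicate 3). They reached -0.427 where only 1 had it (10 mg replicate 2 and 20 mg replicate 3). With this variation present, the check cannot show whether replicate numbers pair the mice. With the replicate number as a block, 27 genes were called at 20 mg and 0 other sphingolipid genes, Acer2 having a log2 fold change of 0.79 (adjusted p = 0.14).

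Small differences turned sign. With the covariate they became 0.0061 for S1pr1, -0.00069 for S1pr2, 0.027 for Asah1 and 0.047 for Cers6 at 10 mg, 0.099 for Sphk2 at 20 mg, and 0.089 for Sphk2, -0.077 for Sgpl1, -0.40 for Cers2 and -0.091 for Sgms1 between doses. Without the 4 libraries they became 0.020 for Sgpl1, 0.093 for S1pr1, -0.17 for S1pr2, -0.12 for S1pr3 and 0.15 for Cers6 at 10 mg, 0.039 for Sphk2 and 0.0039 for Sgpl1 at 20 mg, and -0.016 for Sgpl1 between doses. With 1 library left out, the ranges that crossed 0 at 10 mg were -0.0046 to 0.24 for Sphk2, -0.21 to 0.032 for S1pr1, -0.14 to 0.21 for S1pr2, -0.032 to 0.17 for S1pr3, -0.19 to 0.048 for Cers6 and -0.089 to 0.14 for Acer2. At 20 mg they were -0.12 to 0.15 for Sphk2, -0.13 to 0.023 for Sgpl1 and -0.33 to 0.076 for Cers2, and between doses -0.016 to 0.18 for Sgpl1, -0.31 to 0.086 for Asah1, -0.071 to 0.32 for Cers2, -0.22 to 0.050 for Cers6 and -0.0014 to 0.19 for Sgms1. Between 6 and 10 of the 10 genes kept their rank by level with 1 control left out, and 8 with the longest transcript. Depth limits Sphk1 and S1pr2 most, with as few as 37 and 17 counts.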

Other observations

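Adipocyte markers varied strongly between kidneys. Their summed CPM over 6 genes was 97.6 to 274 in the controls, 68.3 to 141 at 10 mg and 68.4 to 116 at 20 mg, and none of the 5 tested was called at either dose. The median log2 fold change of these 5 at 20 mg was -3.02, with -3.42 for Adipoq, -3.17 for Cfd, -3.02 for Cidec and -2.51 for Plin1 (adjusted p between 0.25 and 0.45). Fabp4, the fatty acid binding protein that endothelium also expresses, made up most of the sum, with 149 ± 40.9 CPM in the controls and 89.2 ± 16.8 CPM at 20 mg (log2 fold change -0.74). In the same kidneys Slc5a2, the glucose transporter of the early proximal tubule, was called lower at 20 mg (217 ± 16.2 CPM in the controls, 143 ± 13.6 at 20 mg, log2 fold change -0.61, SE 0.12, adjusted p = 0.082), the only one of 7 proximal tubule markers to be called. At 20 mg the endocytic receptor genes Lrp2 and Cubn had log2 fold changes of -0.76 (SE 0.18, adjusted p = 0.17) and -0.66 (SE 0.31, adjusted p = 0.60). Lrp2 was lower in every mouse treated with 20 mg than in every control, while the 10 mg group overlapped the controls. The other 4 lay between -0.23 (Slc34a1) and 0.33 (Slc7a13) at 20 mg.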
